A study of Mus musculus with 7 samples.

Results

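The nuclear genes that encode subunits of the oxidative phosphorylation complexes were followed in bone marrow-derived macrophages of wild-type mice and mice lacking Tgm2, with and without lipopolysaccharide (LPS). Members were taken by name: rows that start with Ndufa, Ndufb, Ndufc, Ndufs, Ndufv, Uqcr, Cox4 to Cox8 or Atp5, plus Cyc1 and Sdha to Sdhd, without assembly factors named Ndufaf and pseudogenes. They numbered 87 of 23337 genes. By name 36 belonged to Complex I, 4 to Complex II, 9 to Complex III, 18 to Complex IV and 15 to ATP synthase. The other 5 match the prefixes but are not subunits: Atp5s, Atp5sl (now Dmac2), Cox4nb (now Emc8), Ndufa4l2 and the supercomplex factor Cox7a2l. Ndufa4 was placed in Complex IV, where its protein is found.

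Bone marrow from male mice of 6 to 8 weeks was cultured for 7 days with 25 ng/ml of M-CSF, the factor that drives marrow cells to become macrophages. Cells were then left untreated (M0) or exposed for 6 hours to 10 ng/ml of LPS, the endotoxin of Gram-negative bacteria that Tlr4 detects. RNA sequencing gave 7 libraries: 2 of wild type untreated (WT M0), 1 of knockout untreated (KO M0), 2 of wild type with LPS (WT LPS) and 2 of knockout with LPS (KO LPS). The labels name the knockout mice Tgm2 KO and give no further allele or Cre. They do not say whether replicates came from separate mice or cultures, and the spread behind each p-value may thus be technical.

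Oxidative phosphorylation is a main source of ATP in resting macrophages. Complex I takes electrons from NADH and Complex II from succinate. Ubiquinone carries them to Complex III, cytochrome c to Complex IV, where oxygen is reduced, and the proton gradient that Complexes I, III and IV build drives ATP synthase. A few subunits are encoded by mitochondrial DNA and the rest, those described here, by the nucleus. Macrophages given LPS are known to shift towards glycolysis, to make itaconate, which inhibits Complex II, and to oxidise succinate in a way that sends electrons back through Complex I.

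Values were TPM, a transcript level corrected for length and for library total. They keep no record of the reads behind them, so the depth is unknown. Tgm2, the gene removed, stood at 433 and 368 TPM in WT M0 and 50.7 in KO M0, and with LPS at 233 and 199 in wild type and 19.4 and 19.2 in knockout. A TPM per gene cannot say which exons the remaining knockout signal came from. Xist, the X-inactivation RNA, stood at 47.2 and 55.4 TPM in both WT LPS libraries, against at most 0.00535 in the other 5, although all 7 are labelled male. Each comparison with WT LPS carries that difference, and its part in the results was not tested. The members on chromosome X were 3: Cox7b, Ndufa1 and Ndufb11. Macrophage markers, 8 of 8 present, summed to between 38578 and 51310 TPM. Lists of T cell, B cell, erythroid, dendritic and muscle markers summed to at most 17.9 TPM in any library, with Cd3g, Pax5 and Myh4 at 0 in all 7, Cd3d and Cd3e at 0.205 TPM or less, and Cd247 making up most of the highest sum. Of the neutrophil list, 6 of 7 were present, 4 stayed under 1 TPM, and the sum went from at most 8.48 TPM in untreated libraries to between 106 and 333 TPM with LPS, nearly all of it S100a8. The part of these rows in the results was not tested. The stromal list, 5 of 5 present, summed to between 18.3 and 36.8 TPM, with Col1a1 and Col1a2 at 0 in WT LPS and Pdgfrb higher with LPS. In bulk libraries fewer cells of a type and less RNA per cell cannot be told apart.

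The promoters of respiratory genes are known for sites of NRF1, of the ETS-family factor GABP and of YY1. Promoter windows, from 250 bases before to 50 bases after the start in the RefSeq table of GRCm38.p6, were found for 70 of the 87 members and were searched on both strands. The NRF1 motif (GCGC, any 2 bases, GCGC) was in 27.1% of them, against 7.00% of all 27025 promoters in the table and 16.0% of the promoters of all tested genes. The ETS motif CCGGAAG was in 22.9%, against 9.93% and 22.1%, so its share was close to that of genes expressed in these libraries. The YY1 motif AANATGGCG was in 15.7%, against 2.76% and 6.56%, and CCAAT was in 44.3%, against 41.1% and 42.9%. No motif here contains another. The 5 members below are shown because they differed in their LPS calls: Sdhd, Atp5g2 and Uqcrh were lower with LPS in both genotypes, Sdha in wild type alone passed the test, and Atp5c1 passed in neither. Each line gives the 120 bases before the start, read 5′ to 3′ on the minus strand, with NRF1 and ETS matches in capitals. Atp5c1 has 2 starts in the table, and 1 is shown. The 120 bases before its other start hold no NRF1 or ETS match.
Sdhd, membrane anchor of Complex II, chr9:50603850-50603969: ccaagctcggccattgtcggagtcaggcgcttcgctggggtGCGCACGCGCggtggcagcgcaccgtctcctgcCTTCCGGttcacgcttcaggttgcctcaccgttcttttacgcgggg
Atp5g2, c subunit of ATP synthase, chr15:102671048-102671167: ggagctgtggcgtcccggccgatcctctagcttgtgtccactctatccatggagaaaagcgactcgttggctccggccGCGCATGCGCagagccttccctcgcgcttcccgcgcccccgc
Uqcrh, hinge protein of Complex III, chr4:116075071-116075190: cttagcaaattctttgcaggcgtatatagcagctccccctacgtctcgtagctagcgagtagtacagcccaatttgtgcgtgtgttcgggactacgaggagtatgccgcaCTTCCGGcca
Sdha, flavoprotein of Complex II, chr13:74350241-74350360: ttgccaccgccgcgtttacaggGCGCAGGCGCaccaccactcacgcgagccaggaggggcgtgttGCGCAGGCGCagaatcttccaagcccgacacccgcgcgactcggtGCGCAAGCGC
Atp5c1, gamma subunit of ATP synthase, chr2:10080433-10080552: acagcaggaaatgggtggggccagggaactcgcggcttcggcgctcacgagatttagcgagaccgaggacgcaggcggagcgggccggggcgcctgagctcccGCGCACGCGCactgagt
Sdhd holds an NRF1 and an ETS match, Sdha 3 NRF1 matches, Atp5g2 and Atp5c1 an NRF1 match each and Uqcrh an ETS match. NRF1 matches were thus found in members with and without an LPS call. They were in 25% of the 40 members called lower with LPS in wild type that had a window and in 32.1% of the 28 tested members that were not. For ETS these shares were 27.5% and 17.9%, for YY1 5 of 40 and 6 of 28, and for CCAAT 52.5% and 32.1%. A match is a description of letters and not a bound site.

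Of the 87 members 82 passed the filter, a mean of at least 1 TPM over the 7 libraries, and were tested. The 5 that did not were Cox4i2, the hypoxia-linked isoform of Cox4, at 0.785 TPM or less, Ndufa4l2, at 1.85 TPM or less, and Cox7b2, Cox8b and Cox8c, isoforms known from testis or muscle, each listed at 0 in all 7 libraries. Mean TPM over the 7 libraries had a median of 62.7 in Complex I, between 21.4 for Ndufa11 and 157 for Ndufa2. In Complex II it ran from 95.3 for Sdhd to 133.8 for Sdhb, and in Complex III from 71.0 for Uqcr11 to 249 for Uqcrh. Complex IV spanned the widest range, from 2.26 for Cox6a2, the striated muscle isoform of subunit 6a, to 639.5 for Cox4i1. ATP synthase ran from 74.8 for Atp5g1 to 467 for the catalytic beta subunit Atp5b. TPM are corrected for length, but the WT M0 replicates differed with transcript length, as given below, and the quantifier is not named. Levels of different genes can thus be compared only roughly.

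Together the genes of the 5 complexes, 82 with those not tested, held 14499.8 and 11014 TPM in WT M0 and 11227.5 in KO M0, and with LPS 8334 and 8709.6 in wild type and 9952 and 9973 in knockout. In TPM every LPS library lay below every untreated library, and both KO LPS libraries lay above both WT LPS libraries. The first of these depends on the scaling: with median-ratio scaling the sum was 10009 in KO M0 and 10555 and 10605 in KO LPS, so the direction in knockout turned, while both WT LPS libraries, at 9385 and 8997, stayed below all 3 untreated ones. The 2 WT M0 libraries stood further apart than any other pair of replicates. Complex IV showed this most, with summed TPM of 4256 and 2801 in WT M0 and 2891 in KO M0, and with LPS of 2262 and 2355 in wild type and 2812 and 2943 in knockout. Here the KO LPS libraries overlapped the untreated range. Complex I summed to 3664 and 2908 in WT M0 and 2847 in KO M0, and with LPS to 1947 and 2076 in wild type and 2218 and 2293 in knockout, so all 4 LPS libraries lay below all 3 untreated ones, with median-ratio scaling as well. Complex II, with 564 and 545 TPM in WT M0 and 527 in KO M0, and with LPS 399 and 438 in wild type and 442 and 463 in knockout, was the most even between the WT M0 replicates.

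**Figure D1:**
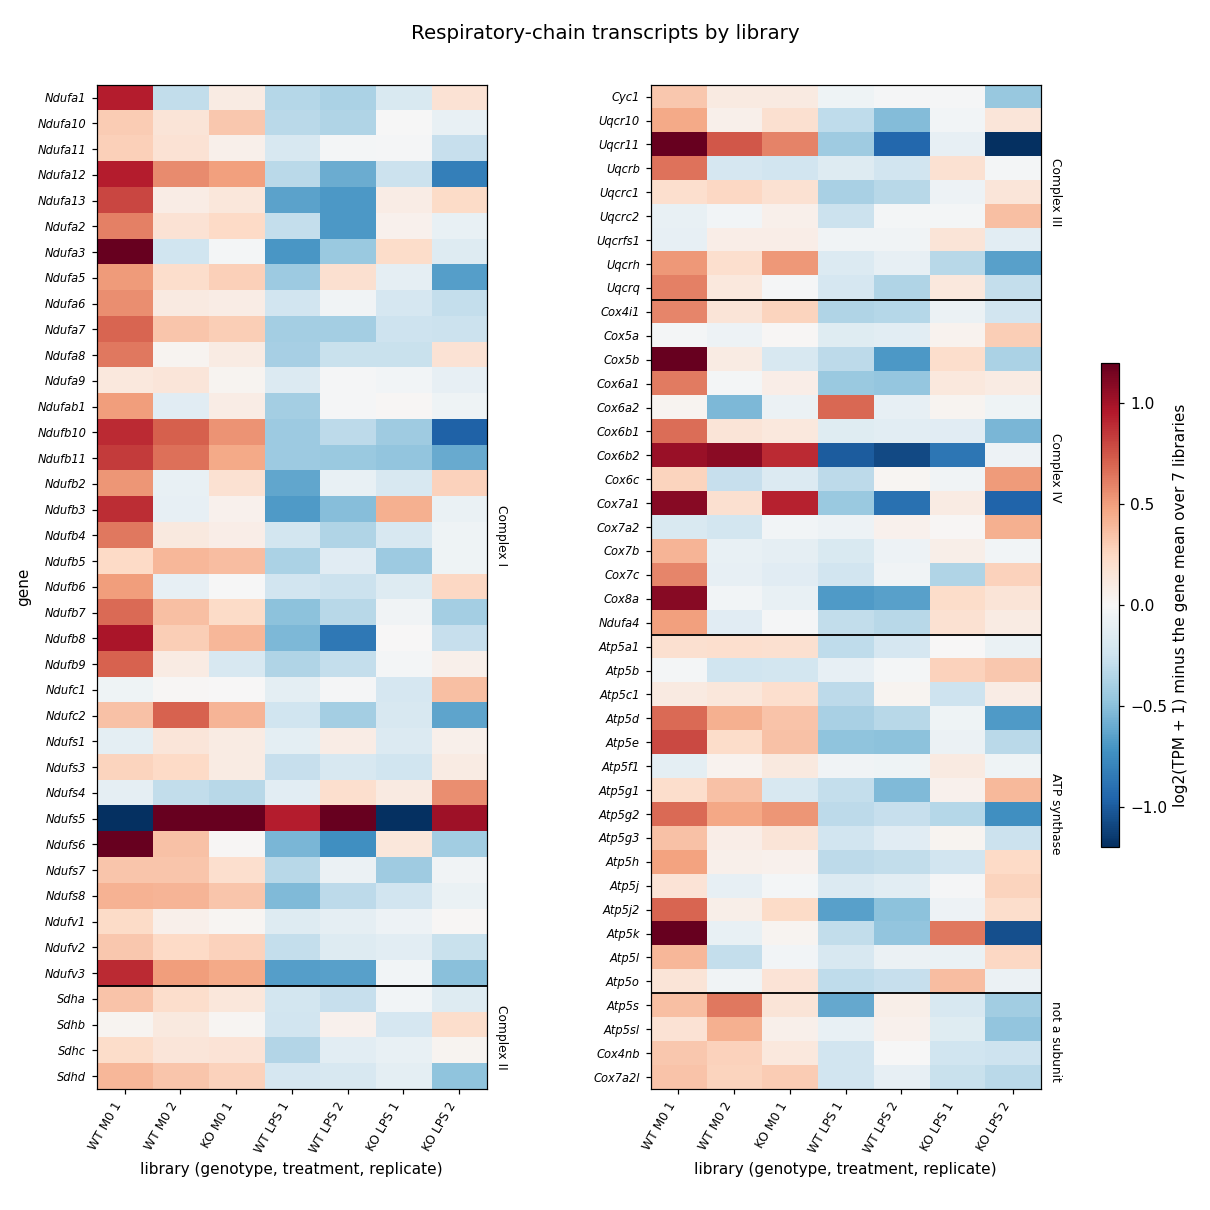
Level of 81 of the 82 tested members (rows, by complex) in the 7 libraries (columns), as log2(TPM + 1) minus the gene's mean over the 7 libraries; the colour scale stops at -1.2 and 1.2. Most rows are red in WT M0 replicate 1 and blue in WT LPS, and Ndufs5 changes colour between replicates of a group.

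WT M0 replicate 1 stood above replicate 2 for 64 of the 82 members, with a median log2 difference of 0.26. Over all tested genes the median difference was -0.12, and 33.9% were higher in replicate 1. The difference was larger for short transcripts: a median of 0.43 for the 37 members whose longest annotated transcript is under 1000 bases (33 of 37 higher) and 0.08 for the 45 longer ones (31 of 45). Among all tested genes under 1000 bases 68.7% were higher in replicate 1, against 31.7% of longer ones. The TPM ratio of replicate 1 to 2 was above 1.5 for 23 members, among them Ndufa3 at 213 and 70.7 TPM and Cox8a at 616 and 282. Members are short, with a median longest transcript of 1135 bases against 3282 for all tested genes. KO M0 stood near WT M0 replicate 2, with a median log2 difference of -0.0088 over the members. For comparisons with WT M0, the medians and the main counts are therefore also given without replicate 1. Some of the named calls that were lost without it are marked, and a call without such a mark may have been lost too.

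**Figure D2:**
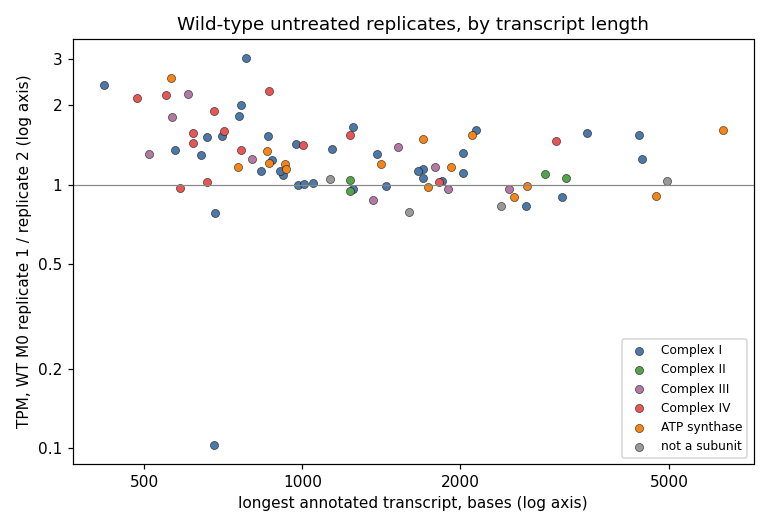
Ratio of TPM in WT M0 replicate 1 to replicate 2 (log axis) against the length of the longest annotated transcript (log axis) for the 82 tested members, coloured by complex. Points under 1000 bases lie mostly above the line at 1, and the lowest point is Ndufs5 at a ratio of 0.103.

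In wild-type cells LPS lowered 46 of the 82 tested members and raised none, by limma on log2(TPM + 1) at a Benjamini-Hochberg adjusted p of 0.05 over 11096 genes. That is 56.1% of the members, where 29.6% of all tested genes were called lower and 15% higher. The members' median log2 fold change was -0.54 and that of all tested genes -0.21, a difference of -0.33. Both WT LPS libraries lay below both WT M0 libraries for 65 of 82 members (79.3%), against 48.4% of all tested genes, and above them for 1 (1.22%), against 25%. The extent depended on WT M0 replicate 1: without it 20 members were called lower and the members' median stood 0.14 below that of all genes (-0.14). With a trend on transcript length removed from each library 14 were lower and 3 higher, and with median-ratio scaling 17 were lower. Shares of all tested genes called under these settings are not given here, so the counts do not show an excess over all genes.

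Of the lowered members 11 kept the call in wild type under median-ratio scaling, quantile normalization, removal of a length or a GC trend, and without WT M0 replicate 1: Ndufa7, Ndufa12, Ndufb7, Ndufb8, Ndufb10, Ndufb11, Ndufs6, Ndufv3, Atp5e, Atp5j2 and Cox6b2. All but 3 are Complex I accessory subunits, and Complex I as a whole made up 22 of the 46 lowered members. The share of all tested genes that kept a call under these settings is not given here, so no excess is shown. The other 35 lost it under at least 1 of these alternatives. Ndufa7, Ndufb7, Atp5e and Atp5j2 are named here after their values were seen.

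In Complex I 22 of 36 members were lower with LPS in wild type, and the 6 largest falls, described here, were those of accessory subunits, which surround the catalytic core. Ndufb10, an accessory subunit of the membrane arm of the complex, stood at 147 and 129.7 TPM in WT M0 and 115 in KO M0, and with LPS at 57.7 and 62.8 in wild type and 57.9 and 39.4 in knockout. All 4 LPS libraries lay well below the 3 untreated ones. Its log2 fold change was -1.18 in wild type (SE 0.20, limma adjusted p 0.00071) and -1.24 in knockout (SE 0.24, adjusted p 0.0023). Ndufb11, an X-linked accessory subunit of the same arm, stood at 121 and 107 TPM in WT M0 and 92.7 in KO M0, and with LPS at 49.5 and 49.4 in wild type and 48.2 and 44.1 in knockout. Again no LPS library reached an untreated one, with fold changes of -1.19 (SE 0.16, adjusted p 0.00015) and -0.99 (SE 0.19, adjusted p 0.0023). Ndufv3, a small subunit next to the NADH-binding module, fell from 103 and 78.2 TPM to 34.4 and 34.5 in wild type (-1.35, SE 0.20, adjusted p 0.00037). In knockout cells it went from 75.4 TPM to 53.5 and 38.4. Ndufs6, a zinc-binding subunit of that module, stood at 85.1 and 46.7 TPM in WT M0 and 24.6 and 21.4 in WT LPS (-1.42, SE 0.28, adjusted p 0.0020). Its untreated replicates differed by nearly as much as the groups, and its knockout values of 36.8 TPM without and 40.2 and 26.9 with LPS overlapped. Ndufb8 went from 165 and 102 TPM to 56.8 and 45.3 in wild type, and Ndufa12 from 73.7 and 56.6 to 29.98 and 24.7.

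Among the core subunits of Complex I, Ndufs8, which carries iron-sulfur clusters on the path to ubiquinone, stood at 74.4 and 74.1 TPM in WT M0 and 38.1 and 44.3 in WT LPS (log2 fold change -0.84, SE 0.16, limma adjusted p 0.0018). Ndufs3, Ndufs7 and Ndufv2, also of the core, fell by 0.49, 0.53 and 0.50 with adjusted p between 0.027 and 0.036, and each missed the threshold without WT M0 replicate 1. With the GC trend removed the fold change of Ndufs7 was 0.015. Ndufs1, the largest core subunit, stood at 42.1 and 50.7 TPM in WT M0 and 41.96 and 48.7 in WT LPS, so its groups overlapped. Ndufv1, the core subunit that binds NADH, and the accessory subunit Ndufab1, the mitochondrial acyl carrier protein, had fold changes of -0.275 and -0.39 that did not pass (adjusted p 0.18 and 0.19).

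In Complex II 3 of 4 members were lower in wild type. Sdha stood at 151 and 138 TPM in WT M0 and 131 in KO M0, and with LPS at 102 and 98.5 in wild type and 116 and 107 in knockout, so no LPS library reached an untreated one. Its wild-type fold change was -0.52 (SE 0.15, limma adjusted p 0.017). The membrane anchors Sdhc and Sdhd had fold changes of -0.42 (adjusted p 0.049) and -0.57 (adjusted p 0.019). The iron-sulfur subunit Sdhb, at 136 and 144.0 TPM in WT M0 and 113 and 138 in WT LPS, overlapped and did not pass (-0.16, adjusted p 0.50). The 3 calls were lost without WT M0 replicate 1 and with median-ratio scaling.

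In Complex III 5 of 9 members were lower in wild type. Uqcr11, a small subunit of the complex, stood at 198 and 89.3 TPM in WT M0 and 80.4 in KO M0, and with LPS at 38.9 and 27.1 in wild type and 49.2 and 14.9 in knockout. Its fold change of -1.999 (SE 0.48, limma adjusted p 0.0067) was -1.43 (adjusted p 0.088) without WT M0 replicate 1. The core protein Uqcrc1 went from 173 and 179 TPM to 115 and 119 (-0.59, SE 0.15, adjusted p 0.0095). The redox-active subunits did not pass: Uqcrfs1, the Rieske iron-sulfur protein, had WT LPS values that lay between its WT M0 values of 115 and 131 TPM, and Cyc1, cytochrome c1, stood at 109 and 94.1 in WT M0 and 84.4 and 86.6 in WT LPS. Uqcrc2, the other core protein, overlapped as well (-0.08, adjusted p 0.75).

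In Complex IV 7 of 14 tested members were lower in wild type. Cox4i1, the common isoform of subunit 4 and the most abundant member, stood at 934 and 692 TPM in WT M0 and 749 in KO M0, and with LPS at 485 and 493 in wild type and 592 and 532 in knockout. All LPS libraries were below all untreated ones, with a wild-type fold change of -0.72 (SE 0.17, limma adjusted p 0.0069) that missed the threshold without WT M0 replicate 1. Cox5b went from 295 and 130.0 TPM to at most 97.5 (-1.19, SE 0.33, adjusted p 0.015) and Cox8a, the common isoform of subunit 8, from 616 and 282 to 180.4 and 183 (-1.19, SE 0.29, adjusted p 0.0065). In both the untreated replicates differed by more than the gap to the LPS group. Neither gene kept its wild-type call under all the alternatives named above. Cox5a, which joins Cox4i1 early in assembly, did not pass, at 233 and 228 TPM in WT M0 and 214 and 218 in WT LPS (-0.09, adjusted p 0.64). Cox6a1 and Cox6b1, the common isoforms of subunits 6a and 6b, fell by 0.75 and 0.55 (adjusted p 0.011 and 0.048) and missed the threshold without WT M0 replicate 1. With the length trend removed Cox6b1 was at 0.011.

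In ATP synthase 7 of 15 members were lower in wild type. Of the catalytic head, the alpha subunit Atp5a1 stood at 356 and 359 TPM in WT M0 and 252 and 271 in WT LPS (log2 fold change -0.45, SE 0.14, limma adjusted p 0.026, not passed without WT M0 replicate 1). The beta subunit Atp5b stood at 456 and 391 TPM in WT M0 and 396 in KO M0, and with LPS at 432 and 456 in wild type and 559.7 and 577 in knockout. It did not pass in wild type (0.07, adjusted p 0.72) and was the 1 member higher with LPS in knockout (0.52, SE 0.18, adjusted p 0.047), a call lost when any LPS library of either genotype was left out. The gamma subunit Atp5c1 and Atp5o, which ties the head to the stator, did not pass in any comparison. Atp5d and Atp5e, the small subunits of the central stalk, went from 289 and 242 TPM to 137 and 142 and from 469.6 and 314 to 193 and 192. Their fold changes were -0.92 (SE 0.21, adjusted p 0.0046) and -0.99 (SE 0.20, adjusted p 0.0022).

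**Figure D3:**
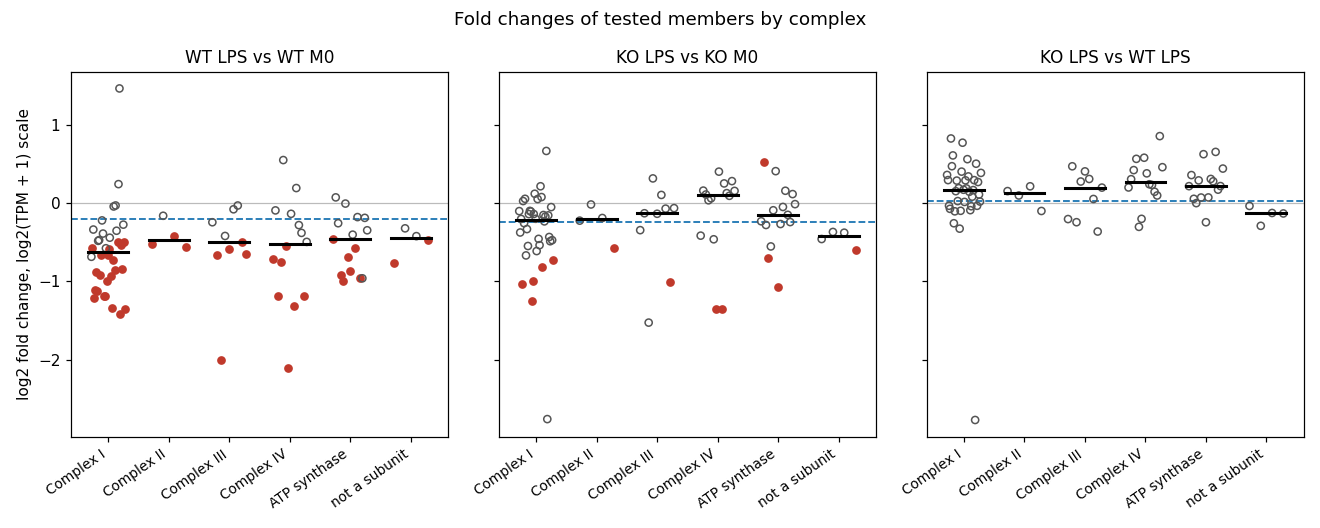
Log2 fold change on the log2(TPM + 1) scale of each tested member, by complex, for LPS in wild type, LPS in knockout and knockout against wild type under LPS. Filled red points passed the limma test (46, 13 and 0), black bars are complex medians, and the dashed blue line is the median of all 11096 tested genes; wild-type points lie mostly below that line and knockout points around it.

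In knockout cells LPS lowered 12 of the 82 members and raised 1, against 24.3% of all tested genes lower and 13.8% higher, so 14.6% of the members were lower. This comparison rests on a single KO M0 library, which the fit assumes to vary like the other groups. The members' median fold change was -0.18 and that of all genes -0.24. Relative to all genes the members' median was 0.06, and it was -0.16 with quantile normalization, so its side depends on the scaling. All 12 were also called lower in wild type: they make up 26.1% of the wild-type list and 100% of the knockout list. The comparisons share no library, but the spread of each gene comes from a single fit over all 7 libraries. The same overlap over all tested genes is not given here, so these shares have nothing to be set against. The 12 were Ndufa12, Ndufb10, Ndufb11, Ndufc2 and Ndufv3 of Complex I, Sdhd, Uqcrh, Cox6b2 and Cox7a1, Atp5d and Atp5g2, and Cox7a2l. Only Ndufb10 and Ndufb11 of these kept both calls under median-ratio scaling, quantile normalization, removal of a length or a GC trend, and without WT M0 replicate 1. Without KO LPS replicate 2, 7 members were lower, with Ndufa12, Ndufc2, Ndufv3, Sdhd, Cox7a1, Atp5d and Cox7a2l among the calls lost, and without both WT LPS libraries in the fit 9.

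Several of the shared 12 had clear gaps in every library. Uqcrh stood at 345 and 276 TPM in WT M0 and 344 in KO M0, and with LPS at 214 and 224 in wild type and 189.6 and 153 in knockout, with fold changes of -0.49 (SE 0.17, limma adjusted p 0.040) and -1.01 (SE 0.21, adjusted p 0.0037). With the length trend removed its wild-type value was 0.018. Sdhd stood at 123 and 118 TPM in WT M0 and 113 in KO M0, and with LPS at 80.6 and 81.2 in wild type and 85.7 and 66.2 in knockout. Cox7a2l, which helps join Complexes III and IV, stood at 429 and 408 TPM in WT M0 and 419.6 in KO M0, and with LPS at 289 and 316 in wild type and 281 and 271 in knockout. For these 3 genes no LPS library overlapped an untreated one, and the wild-type call of each was lost without WT M0 replicate 1. Ndufc2, of the Complex I membrane arm, was likewise separate, at 108 and 139 TPM in WT M0 and 113 in KO M0, and with LPS at 71.6 and 63.6 in wild type and 73.8 and 54.4 in knockout.

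Under LPS no member passed the test between knockout and wild type, where 7.16% of all tested genes were called (4.59% higher and 2.58% lower). The smallest adjusted p was 0.053, and 13 members (15.9%) had an unadjusted p under 0.05, against 20% of all tested genes. Members tended to stand higher in KO LPS: both KO LPS libraries were above both WT LPS libraries for 36 of 82 (43.9%, against 28.7% of all tested genes) and below for 6 (7.32%, against 21%). The members' median fold change was 0.19, or 0.16 above that of all genes, and this difference ran from 0.12 to 0.17 over the alternatives. Ndufa13, also known as GRIM-19 and needed for Complex I assembly, was at 25.2 and 24.4 TPM in WT LPS, below its 42.4 and 47.0 in KO LPS (log2 fold change 0.82, SE 0.22, limma adjusted p 0.053). Cox8a was at 180.4 and 183 TPM in WT LPS, below its 337 and 322 in KO LPS (0.85, SE 0.29, adjusted p 0.12). For each the replicates within WT LPS and within KO LPS were closer than these groups were to each other. The WT M0 replicates, which enter the shared estimate of the spread, stood at 70.3 and 42.5 TPM for Ndufa13 and 616 and 282 for Cox8a. The part of that spread in the missed threshold was not tested. Without WT M0 replicate 1, Cox6a1, Cox8a and Ndufa13 passed (adjusted p 0.047, 0.0095 and 0.022). The share of all tested genes called without that library is not given here. Ndufa13 is named after its values were seen.

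Without LPS no member passed between KO M0 and WT M0, where 0.00901% of all tested genes were called, and 2 (2.44%) had an unadjusted p under 0.05, against 1.39% of all. The members' median stood 0.20 below that of all genes (-0.20) and at -0.0018 without WT M0 replicate 1. The test of the difference between the LPS changes of the genotypes, the interaction, called no member either, where it called 1.37% of all tested genes, and 9 (11%) had an unadjusted p under 0.05, against 10.5% of all. Its median over the members was 0.32 above that of all genes and 0.11 without WT M0 replicate 1. So 46 members were called lower in wild type and 12 in knockout, and no single member had an LPS change that differed between the genotypes by this test. Without WT M0 replicate 2 the interaction was 2.03 for Cox8a and 1.97 for Ndufa3, against 1.47 and 1.18 with all libraries. That setting leaves replicate 1 alone for untreated wild type. Replicate 1 was the higher of the pair for both genes, at 616 against 282 TPM for Cox8a and 213 against 70.7 for Ndufa3.

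The clearest change around Complex IV was in AA467197, a paralog of Ndufa4 also known as Nmes1, which is described as taking the place of Ndufa4 in Complex IV during inflammation. It lies on the electron carrier and subunit swap list and not among the members. AA467197 stood at 4.44 and 2.89 TPM in WT M0 and 4.26 in KO M0, and with LPS at 127 and 94.6 in wild type and 229 and 243 in knockout. Untreated, WT LPS and KO LPS libraries did not overlap. It rose with LPS by 4.59 in wild type (SE 0.21) and 5.49 in knockout (SE 0.26). The interaction, 0.91 (SE 0.34), did not pass (limma adjusted p 0.33). AA467197 was 1.10 higher in KO LPS than in WT LPS (SE 0.21, limma adjusted p 0.011). That last call was lost with a GC trend removed (0.052), with no filter for low genes (0.11), and on leaving out WT LPS replicate 2 (0.10) or KO LPS replicate 2 (0.078). Ndufa4 itself stood at 210.4 and 136 TPM in WT M0 and 148 in KO M0, and with LPS at 121 and 118 in wild type and 169.9 and 159.6 in knockout, and passed in no comparison. Of the summed TPM of Ndufa4, Ndufa4l2 and AA467197, the latter held 2.07% and 2.08% in WT M0 and 2.77% in KO M0, and with LPS 51.1% and 44.5% in wild type and 57.5% and 60.3% in knockout.

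**Figure D4:**
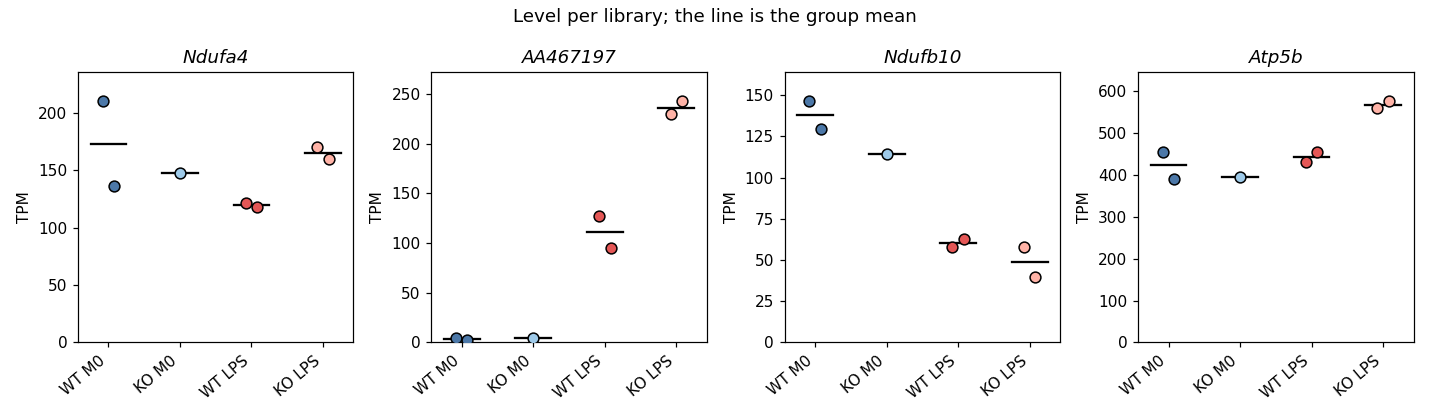
TPM of Ndufa4, AA467197, Ndufb10 and Atp5b in each library by group, with the group mean as a line. AA467197 is under 5 TPM in untreated cells and highest in KO LPS, Ndufb10 is lower in all LPS libraries, and Atp5b is highest in the KO LPS libraries.

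The c subunit, whose ring turns in the membrane, is made as an identical mature protein from Atp5g1, Atp5g2 and Atp5g3. Their summed TPM was 879 and 766 in WT M0 and 769 in KO M0, and with LPS 512 and 524 in wild type and 568 and 485 in knockout. Atp5g2 stood at 461 and 396 TPM in WT M0 and 416 in KO M0, and with LPS at 230.4 and 237 in wild type and 226 and 172 in knockout, with fold changes of -0.87 (SE 0.17, limma adjusted p 0.0022) and -1.07 (SE 0.21, adjusted p 0.0026). Its share of the sum was 52.5% and 51.8% in WT M0 and 54.01% in KO M0, and with LPS 45.02% and 45.3% in wild type and 39.8% and 35.5% in knockout, so the shares of the groups by treatment did not overlap. Atp5g3 had a fold change of -0.40 in wild type that did not pass (adjusted p 0.074). Atp5g1 stood at 84.6 and 93.6 TPM in WT M0 and 64.0 in KO M0, and with LPS at 59.8 and 50.5 in wild type and 75.6 and 96.0 in knockout. It fell with LPS in wild type (-0.69, adjusted p 0.0098) and had the smallest p of all members in the interaction (1.09, SE 0.28, adjusted p 0.11).

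Tissue isoforms of Complex IV were scarce beside their common forms. Cox6b2, known from testis, stood at 5.05 and 5.21 TPM in WT M0 and 4.46 in KO M0, and with LPS at 0.471 and 0.386 in wild type and 0.610 and 1.82 in knockout, and fell by 2.10 in wild type (SE 0.27, limma adjusted p 0.00014) and by 1.36 in knockout (SE 0.34, adjusted p 0.0094). It made up at most 1.71% of subunit 6b transcripts. Cox7a1, the muscle isoform of subunit 7a, stood at 7.14 and 3.36 TPM in WT M0 and 6.23 in KO M0, and with LPS at 1.81 and 1.05 in wild type and 3.08 and 0.967 in knockout. It fell by 1.31 in wild type (SE 0.38, adjusted p 0.017, not passed without WT M0 replicate 1) and by 1.35 in knockout (SE 0.47, adjusted p 0.042). Cox7a2, the common form, held 94.1% to 99.5% of subunit 7a and did not pass in any comparison. Cox6a2 held at most 1.60% of subunit 6a, and Cox8a all of subunit 8.

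Ndufs5, an accessory subunit of Complex I, had replicates further apart, as a ratio of TPM, than any other member in WT M0 and in KO LPS. It stood at 7.84 and 76.0 TPM in WT M0 and 70.3 in KO M0, and with LPS at 58.7 and 85.5 in wild type and 0.774 and 61.8 in knockout. BC002163, a near copy annotated as a processed pseudogene, stood at 107 and 5.51, 11.98, 23.7 and 6.80, and 109 and 3.01 in the same order, so it was high where Ndufs5 was low. The transcript of Ndufs5 (chr4:123712710-123718186) aligned with that of BC002163 at 99.37% identity over 319 bases, with 2 differing bases, both in coding sequence. Both stretches of 41 bases are shown, from GENCODE M21 transcripts, with the differing base in capitals.
Ndufs5, at the first difference: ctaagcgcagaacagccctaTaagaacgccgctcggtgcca
BC002163, at the first difference: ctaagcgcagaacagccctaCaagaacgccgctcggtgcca
Ndufs5, at the second difference: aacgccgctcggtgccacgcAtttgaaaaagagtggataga
BC002163, at the second difference: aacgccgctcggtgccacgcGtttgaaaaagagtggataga
The sum of both genes was steadier, at 115 and 81.5 TPM in WT M0 and 82.3 in KO M0, and with LPS at 82.4 and 92.3 in wild type and 109.96 and 64.8 in knockout. How reads shared between copies were assigned is not given in the sources used here, so the values of Ndufs5 alone are uncertain, and its fold changes, none of which passed, are not interpreted. Of the 25 members with a near copy of at least 95% identity over 200 bases in GENCODE M21, 3 have that copy among the rows of the tables. The others are Atp5o, which shares 287 bases with Donson (at most 24.1 TPM), and Cox7c, with Gm10012 (at most 6.99 TPM). Ndufs5 and its copy are named after their values were seen.

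**Figure D5:**
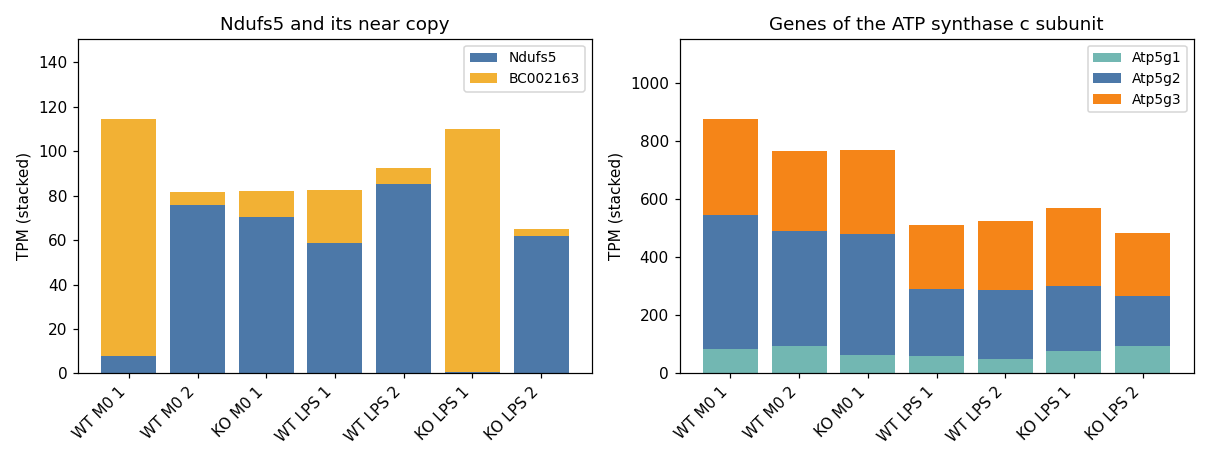
Stacked TPM by library of Ndufs5 and its near copy BC002163 (left) and of the 3 c subunit genes (right). BC002163 makes up nearly all of the left bar in WT M0 replicate 1 and KO LPS replicate 1, and the right bars are lower in all 4 LPS libraries, mostly through Atp5g2.

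Other genes of the respiratory pathway were read from separate lists, to be set against the 29.6% of all tested genes called lower and 15% called higher with LPS in wild type, and 24.3% and 13.8% in knockout. Of 50 tested assembly factors, which help build the complexes, 16 (32%) were lower and 2 (4%) higher with LPS in wild type and 11 (22%) lower and 3 (6%) higher in knockout, so the shares called lower were near those of all genes. Nubpl, which delivers iron-sulfur clusters to Complex I, stood at 7.42 and 10.3 TPM in WT M0 and 10.1 in KO M0, and with LPS at 3.29 and 2.07 in wild type and 3.12 and 2.74 in knockout (-1.43 in wild type, SE 0.24, limma adjusted p 0.00082). Cox18, which inserts a Complex IV subunit into the membrane, went the other way, from 8.54 and 9.25 TPM to 20.6 and 18.7 in wild type and from 9.04 to 24.8 and 34.99 in knockout (1.06 and 1.60). Of 21 genes of the tricarboxylic acid cycle and its entry, 7 (33.3%) were lower and 2 (9.5%) higher in wild type and 6 (28.6%) lower and 3 (14.3%) higher in knockout, again near all genes. Idh2, mitochondrial isocitrate dehydrogenase, stood at 41.5 and 41.2 TPM in WT M0 and 40.6 in KO M0, and with LPS at 8.53 and 12.97 in wild type and 13.7 and 12.3 in knockout, while Pcx, pyruvate carboxylase, rose by 1.59 and 1.46.

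Of 27 electron carriers, swaps and inhibitors, 10 (37%) were lower and 4 (14.8%) higher with LPS in wild type and 5 (18.5%) lower and 5 higher in knockout, with nothing particular to the list in these counts. AA467197 alone of them was called between KO LPS and WT LPS (3.7%, against 7.16% of all tested genes). Irg1 (now Acod1), which makes itaconate, stood at 729 and 658 TPM in WT M0 and 802 in KO M0, and with LPS at 5582 and 5044.5 in wild type and 6138 and 5778 in knockout, a rise of 2.94 and 2.89. Gpd2, which feeds electrons from glycerol 3-phosphate to ubiquinone, rose by 1.61 and 1.75, and Sqrdl (now Sqor), which feeds them from sulfide, by 1.40 and 1.249. Ucp2, an inner membrane carrier, fell by 1.28 and 1.55. Dnajc15, a co-chaperone known to restrain Complex I, fell by 1.01 in wild type (adjusted p 0.0052, not passed without WT M0 replicate 1) and had -0.72 in knockout (adjusted p 0.070). Cycs, cytochrome c, had 0.49 in wild type (adjusted p 0.062) and rose by 1.00 in knockout (adjusted p 0.0078). The interaction called neither Dnajc15 (0.29, limma adjusted p 0.86) nor Cycs (0.51, limma adjusted p 0.65). Of 18 tested biogenesis regulators, 2 (11.1%) were higher and 1 (5.6%) lower in wild type, and 2 higher and 2 lower in knockout. Pparg, a nuclear receptor of lipid metabolism, stood at 27.3 and 38.7 TPM in WT M0 and 33.4 in KO M0, and with LPS at 0.671 and 2.04 in wild type and 0.151 and 0 in knockout. Ppard rose by 1.63 and 1.60. The coactivator Ppargc1b rose by 0.96 and 1.23, from a low level of at most 0.430 TPM to between 1.35 and 2.10. Its wild-type call was lost without WT M0 replicate 1. Ppargc1b passed the filter, a mean of at least 1 TPM, only through the LPS libraries where it is high. It is among the regulators counted higher in each genotype, so those counts carry that limit. Ppargc1a was listed at 0 in all 7 libraries.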

How the data were processed

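Each of the 7 deposited tables gives TPM for 23337 genes and sums to 1000000. The submitters' processing notes name mm10 as the build. Which aligner, quantifier and annotation made the TPM is not given in the sources used here. No row is named as mitochondrially encoded. Groups follow the sample titles. Genes with a mean of at least 1 TPM over the 7 libraries (11096) were fitted as log2(TPM + 1), which understates changes of low genes, with limma 3.58.1 (R 4.3.3) as group means over all 7 libraries with a mean-variance trend (3 residual and 7.3 prior degrees of freedom). P-values were adjusted by Benjamini-Hochberg at 0.05 in each of 5 comparisons. The script was tested on simulated data. Names and promoters are from RefSeq of GRCm38.p6, the assembly mm10 is built on (20756 genes matched by symbol, 2329 by synonym, 223 unmatched and 29 with an ambiguous synonym). Length and GC are of the longest GENCODE M21 transcript, and near copies were found with blastn 2.17.0. The members and gene lists were chosen with earlier results of these data known. Named by rule were up to 10 called members a direction in each comparison, fixed core subunits, isoform groups, the highest and lowest of each complex, members not tested and up to 4 genes of each other list, with some not reported. Other genes, those in the text on promoters, sex-linked rows, near copies and alternatives included, were named after their values were seen. Alternatives were median-ratio scaling, quantile normalization, a pseudocount of 0.1, no filter or a mean of 5 TPM, an adjusted p of 0.01, the compared groups alone, each library and both WT LPS libraries left out, removal of a length or a GC trend (loess, span 0.3), and the replicate number as a block.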

Additional observations from a re-analysis of the deposited data

How the results depend on the processing

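Under the alternatives the members' median relative to all genes kept its sign in each comparison, except in KO LPS vs KO M0, where it was -0.16 with quantile normalization and -0.09 with no filter, against 0.06 as reported. The counts below come without the share of all tested genes called under the same alternative. The count of members called in WT LPS vs WT M0 was 46 as reported, 17 with median-ratio scaling, 17 with the length trend removed, 19 with the GC trend removed, 30 with no filter, 22 at an adjusted p of 0.01 and 20 to 46 with a library left out (20 without WT M0 replicate 1, 23 without WT LPS replicate 1 and 27 without WT LPS replicate 2). In KO LPS vs KO M0 it was 13 as reported, 7 with median-ratio scaling, 7 with the GC trend removed, 7 with no filter, 8 with the compared groups alone, 5 at an adjusted p of 0.01 and 7 to 15 with a library left out (7 without KO LPS replicate 2). In KO LPS vs WT LPS it was 4 with the compared groups alone and 0 to 4 with a library left out (Ndufs5 without KO LPS replicate 2, and Cox6a1, Cox8a and Ndufa13, and once Atp5j2, without either WT M0 library). In KO M0 vs WT M0 it was 1 with the compared groups alone (Ndufs5) and 1 with no filter (Ndufa4l2), and in the interaction 1 with no filter (Ndufa4l2) and 0 to 2 with a library left out. Ndufa4l2 stood at 1.85 TPM in the single KO M0 library, at most 0.296 in WT M0 and 0 with LPS, so its calls rest on 1 library. The values of Ndufs5 alone are uncertain, as given above. With the GC trend removed Ndufs7 in WT LPS vs WT M0 was 0.015 in place of a fall. With the length trend removed, without or with the replicate block, Cox6b1 was 0.011 and Uqcrh 0.018, also in place of a fall. The cause was not tested.

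With median-ratio scaling, which moves all genes of a library together, mean summed TPM in KO M0, WT LPS and KO LPS was 2538, 2169 and 2395 for Complex I, 469.6, 451 and 480.5 for Complex II (514 in WT M0), 2577, 2489.5 and 3056 for Complex IV and 3259, 3025 and 3520.4 for ATP synthase. For Complex III it was 1165 in KO M0 and 1056 in WT LPS. On this scale the sums of Complex II, Complex IV and ATP synthase were higher in KO LPS than in KO M0, the reverse of the order in TPM; the cause was not tested. Same-numbered replicates had correlated deviations of 0.08, 0.30 and 0.18 over the 3 pairs of groups, not all above 0.1, so the numbers were not taken to pair samples. With the replicate block, KO M0 left out, 51 members were called in WT LPS vs WT M0, among them all 46, and 2 (Atp5g1 and Ndufa13) in KO LPS vs WT LPS. With the block and the length trend removed, chosen after seeing the data, these were 24 and 1. Comparisons with KO M0 have no blocked value. Rescaling without mitochondrially encoded genes was not run, since no row is named as such. TPM keep no depth, so no counting error can be given, and groups of 2 and 1 limit the precision.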
